A study of Setaria viridis with 26 samples.

Results

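Jasmonic acid biosynthesis genes were followed through the co-expression network of *Setaria viridis* inflorescence primordia. They were the network genes to which the deposited annotation assigns the Gene Ontology (GO) term for jasmonic acid biosynthesis, leaving out genes that also carry the terms for response to nitrate, coumarin biosynthesis or brassinosteroid biosynthesis. The term was carried by 226 genes, 13 of them had an excluded term, and 172 of the 213 genes left were among the 25298 network genes and are called members. Of the 213 genes, 80.8% were in the network, against 66.0% of all 38334 genes with any term. Measured values entered this choice only through membership in the network. The authors had left out genes with few reads, but the network holds fewer genes than the paper reports after that filter. Every gene in it has at least 1 listed partner, so membership may also depend on the co-expression weights. The assignment rested on a reciprocal best hit (the top match in both directions) to a named plant gene, mostly of Arabidopsis, for 68 of the 172 genes, and 104 genes had no source in their row.

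The study compared *Svful2* mutants, which carry a lesion in the MADS-box gene *SvFul2*, with wild-type plants, both in the A10.1 background. *Svful2* primordia were taken at 9 to 10, 15, and 21 days after sowing (DAS), and wild-type primordia at 8 to 9, 10 to 11, and 17 DAS, with 4 replicates in each of the 6 groups. Each replicate was a pool of primordia dissected by hand, the mutant seed was F4, and the ages of the genotypes differ because stages were matched and the mutant develops later. Only wild-type primordia went into the network of the authors, which held 10 of the 12 wild-type samples together with wild-type samples of an earlier study. Most network samples came from that earlier study, whose stages reached to the development of floral organs. Any difference between the studies would enter the weights and was not tested. No *Svful2* sample entered the network, so the values below describe covariation in wild-type primordia and give no difference between mutant and wild type.

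Jasmonic acid is made from linolenic acid of plastid membranes. A 13-lipoxygenase (LOX), allene oxide synthase (AOS), and allene oxide cyclase (AOC) produce 12-oxophytodienoic acid (OPDA) in the plastid, and in the peroxisome OPDA reductase (OPR3), a CoA ligase (OPCL1), and the enzymes of beta-oxidation (ACX, MFP2 or AIM1, and KAT) shorten it to jasmonic acid. JAR1 joins the acid to isoleucine, the receptor COI1 binds the conjugate, and JAZ repressors are then degraded and release MYC transcription factors such as MYC2. In grasses the hormone is known for its part in sex determination of the maize tassel and in spikelet development of rice.

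The value of a gene pair is its topological overlap, a score of how far 2 genes share co-expression partners, from 0.02 to 0.393 with a median of 0.0412 over the 43548751 listed pairs. A listed pair is called an edge here. The weight of an unlisted pair is known only to be below about 0.02. Each weight is 1 value over all samples of the network, without replicate error or read depth, so no test between groups could be made, and genes are named from their reciprocal best hits in Arabidopsis.

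The 11 pathway enzymes with the term lay in 9 of the 26 modules (sets of co-expressed genes named by colour). Consecutive steps of the pathway were mostly in different modules, as are most pairs of network genes. Of the 55 pairs of these enzymes, 2 were of 1 module, against 24000072 of all 319981753 network pairs. In the plastid, *LOX2* (Sevir.1G049900) was in red, *LOX3* (Sevir.9G523500) in black, *AOS* (Sevir.9G076300) in midnightblue, and *AOC3* (Sevir.9G363100) in magenta. Of the reductases, *OPR3* (Sevir.6G179600), the peroxisomal enzyme of the pathway in Arabidopsis, was in blue, and *OPR2* (Sevir.7G117700), a related reductase, was in turquoise. *OPCL1* (Sevir.9G556300) was in pink. Of the beta-oxidation enzymes, the acyl-CoA oxidase *ACX1* (Sevir.4G062700) and the multifunctional protein *MFP2* (Sevir.5G161600) were in tan, the multifunctional protein *AIM1* (Sevir.1G121000) was in black, and the thiolase *KAT2* (Sevir.1G372900) was in brown. The best hits of the lipase genes *DAD1* (Sevir.7G332600) and *DGL* (Sevir.8G111300) carry the term but were not in the network. Another 5 network genes are best hits of pathway genes but do not carry the term, the desaturase *FAD8* (salmon), the peroxisomal importer *CTS* (brown), and the oxidases *ACX2* (black), *ACX3* (brown), and *ACX4* (brown).

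Among these 16 pathway genes, 33 of 120 pairs were edges (27.5%), against 13.6% of all gene pairs of the network. Over all network genes of the same module pairs, the average was 13.2%. The 16 genes had a median of 4090 edges each, against 3069 for all network genes, and the part of their larger number of edges in this share was not tested. The edges were unevenly spread over the pathway.

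Among the plastid genes *FAD8*, *LOX2*, *LOX3*, *AOS*, and *AOC3*, 1 of 10 pairs was an edge (10%), near the 13.6% of all network pairs and the average of 6.21% over all network genes of the same module pairs. This edge, of 0.048, joined *LOX2* and *AOS* and was above 95.2% of the edges of *AOS*. *AOS*, which had edges with only 3.13% of all network genes, had none with *AOC3*, whose product follows it directly in the pathway, and none with *OPR3*. Most edges of *AOS* (53.2%) led to the red module of *LOX2*, while few of its 791 edges led to other pathway genes. *HPL1* (Sevir.1G007100, red), the hydroperoxide lyase that draws on the same lipid hydroperoxides to make leaf aldehydes, had edges with *LOX2* (0.0789) and with *AOS* (0.0211).

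The beta-oxidation enzymes formed the dense part of the pathway. Among *CTS*, *ACX1* to *ACX4*, *MFP2*, *AIM1*, and *KAT2*, 21 of 28 pairs were edges (75%), against an average of 28.7% over all network genes of the same modules. This set was chosen after the weights were seen and leaves out the peroxisomal genes *OPR3* and *OPCL1*. With them included, 21 of 45 pairs were edges (46.7%). *CTS* and *MFP2* had the heaviest of these edges (0.129), which exceeded 99.9% of the edges of *MFP2*. *KAT2* had edges of 0.101 with *ACX3* and 0.0997 with *ACX4*, and *AIM1* had edges of 0.0791 with *ACX3* and 0.0455 with *ACX1*. These enzymes also shorten straight-chain fatty acids, and the weights do not separate that role from jasmonate synthesis. *OPR3* and *OPCL1*, which act just before them in the same compartment, had no edge with any of the 8 genes. They had edges with only 2.16% and 6.57% of all network genes, so few or no edges with 8 genes are near those shares.

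*LOX3* was linked with these peroxisomal genes rather than with the plastid ones. It had edges with *AIM1* (0.107), *ACX2* (0.107), *ACX3* (0.065), and *KAT2* (0.0497), and with no plastid gene of the pathway. *LOX5* (Sevir.9G126900, lightcyan), whose Arabidopsis counterpart oxidizes linolenic acid at carbon 9 and not 13, carries the GO term too and had edges with *ACX3* (0.109), *ACX2* (0.106), and *LOX3* (0.079).

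Genes of hormone perception and breakdown extended this pattern. Placed after the weights had been seen, 32 genes of the jasmonate lists, 21 of them with the biosynthesis term, could be ordered into 4 sides of an edge map. The beta-oxidation side held 14 genes, which are the 8 peroxisomal genes above, *LOX3*, *LOX5*, *COI1*, *JAZ10*, the Mediator subunit gene *MED25*, and *IAR3*, which like *ILL6* is an amidohydrolase gene of hormone breakdown. Of their 91 pairs, 78 were edges (85.7%), with a median weight of 0.0738. The OPDA and repressor side held 13 genes, *FAD8*, *AOC3*, *OPR3*, *OPCL1*, *JAR1*, *MYC2*, *JAZ1*, *JAZ3*, *JAZ12*, and the hormone-inactivating genes *CYP94B3*, *CYP94C1*, *ILL6*, and *JOX2*. Of their 78 pairs, 43 were edges (55.1%), with a median weight of 0.0369. Over all network genes of the same module pairs the averages were 31.7% and 28.5%. Since the sides were drawn from the weights, these shares describe the map and support nothing further.

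Between these sides, 6 of 182 pairs were edges (3.3%), where all network genes of the same module pairs averaged 8.5%. Of these 6 edges, 5 belonged to *JOX2* (Sevir.3G049400), which oxidizes jasmonic acid to an inactive form, and the other joined *ACX2* and *ILL6* (0.0336). *JOX2* and *ILL6* (Sevir.4G264300) are both in black with *LOX3*, *AIM1*, and *COI1*. Even so, the edge between *ILL6* and *JOX2* (0.0884) was the heaviest of the OPDA and repressor side. *LOX2*, *AOS*, and *HPL1* had no edge with either side, and *OPR2* was joined to the adaptor gene *NINJA* (Sevir.3G152600, grey60) by an edge of 0.104 and to *CTS* by one of 0.0622.

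**Figure D1:**
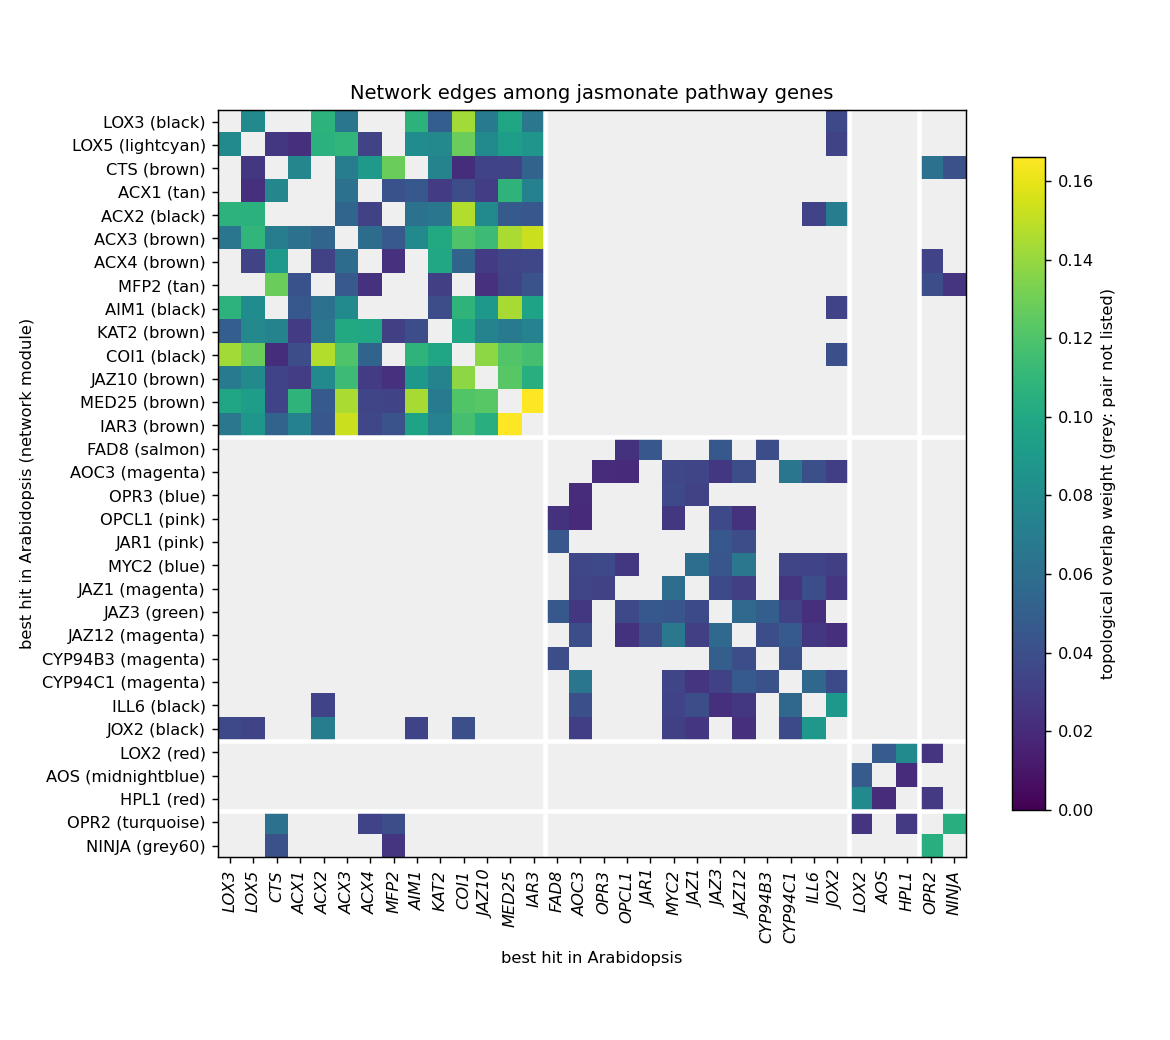
Topological overlap weights (colour scale, no unit) for all pairs of 32 jasmonate pathway genes of *S. viridis*, named by their best hits in Arabidopsis with the network module in brackets. Grey cells, and the diagonal, hold no listed weight, and white lines part the sides described in the text. A block of 14 genes with 78 of 91 pairs listed stands apart from a paler block of 13 genes with 43 of 78 pairs listed, and 6 pairs join them.

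On the OPDA and repressor side, genes of synthesis had edges with genes of breakdown and response as well as with each other. Among *FAD8*, *AOC3*, *OPR3*, and *OPCL1*, 3 of 6 pairs were edges, against an average of 23.6% over all network genes of the same module pairs. Their weights were 0.0244 for *FAD8* and *OPCL1*, 0.0212 for *AOC3* and *OPR3*, and 0.0203 for *AOC3* and *OPCL1*. All 3 lie near the lowest listed weight of 0.02, and none reached 2 times that weight. *AOC3*, the only annotated cyclase gene, had its heaviest edge with a jasmonate gene to *CYP94C1* (0.0653), an enzyme that oxidizes the active conjugate, and this weight exceeded 98.9% of its edges. *AOC3* also had edges with *ILL6* (0.0408), *JAZ12* (0.0396), *MYC2* (0.0355), and *JAZ1* (0.0349), all heavier than its edges with *OPR3* and *OPCL1*. The heaviest edge of *OPR3* to any gene with the term was to *MYC2* (0.0364, above 95.2% of its edges), followed by *JAZ1* (0.032). *MYC2* (Sevir.9G316400, blue) and *JAZ1* (Sevir.2G398800, magenta), the transcription factor and its repressor, shared an edge of 0.0597, above 99.5% of the edges of *JAZ1*.

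The receptor gene was on the other side. *COI1* (Sevir.3G227800, black) had edges with *ACX2* (0.147), *LOX3* (0.143), *JAZ10* (0.138), *MED25* (0.121), *AIM1* (0.108), and *KAT2* (0.0976), and none with *MYC2*, *JAZ1*, *JAZ3*, or *JAZ12*. *MED25* (Sevir.2G175000, brown), a Mediator subunit that binds MYC2 in Arabidopsis, had its heaviest edge among the jasmonate genes with *IAR3* (0.166), followed by *ACX3* (0.145) and *AIM1* (0.144). *JAR1* (Sevir.3G130600, pink), which makes the active conjugate, had edges with *JAZ3* (0.046), *FAD8* (0.045), and *JAZ12* (0.039).

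Many edges joined the members annotated as transcription corepressors, a class that includes the JAZ repressors. Of the 10 members annotated as transcription corepressors, 4 are best hits of *JAZ1*, *JAZ3*, *JAZ10*, and *JAZ12*, and the other 6 have no jasmonate gene as best hit. Among the 4 *JAZ* best hits, 3 of 6 pairs were edges. They lay in magenta (5 genes), green (4 genes), and brown (1 gene). Of their 45 pairs, 34 were edges (75.6%), against an average of 30.1% over all network genes of the same modules and 19.2% among all 38 network genes annotated as corepressors. *JAZ10* (Sevir.5G443301), the brown gene, had 0 edges with the other 9, so that all 34 edges were among the 36 pairs of those 9 genes (94.4%), with weights between 0.0236 and 0.0707. *JAZ3* (Sevir.6G160500) had the heaviest of them, with Sevir.9G376600. Of these genes, Sevir.9G522500 and Sevir.9G522600 are 3 loci apart, and reads of near-identical copies could have been divided between them, so that their edge of 0.0457 is uncertain.

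OPDA reductases, which act on the cyclase product, lay in several modules, most often in turquoise. All 10 OPDA reductase genes of the network carried the term, out of 16 annotated. They lay in 6 modules, and turquoise held 4 of these genes (40%, against 15.5% of network genes). Of their 45 pairs, 7 were edges (15.6%). This is close to the 13.6% of all network pairs, and the average over all network genes of the same modules was 21.1%. Of the 7 edges, 5 were edges of *OPR2*, the heaviest of them to Sevir.5G169000 (0.171) and to its neighbour Sevir.7G117900 (0.132), and *OPR3* had none. *OPR2* had 9110 edges, the most of any gene with the term and close to the network maximum of 9327, and its summed weight exceeded that of 99.4% of network genes. *OPR3* had 546 edges and stood at the 4.4th percentile. A run of 3 neighbouring reductase genes, Sevir.4G076100, Sevir.4G076200, and Sevir.4G076400, was divided among turquoise, brown, and green without an edge. Such neighbours can be alike enough to share reads, which was not tested.

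Other enzyme families differed in their shares. The 12 members with cytochrome P450 domain signatures had 20 of 66 pairs as edges (30.3%). The 4 members annotated as 3-hydroxyacyl-CoA dehydrogenases had 3 of 6 (50%). For these families the average over the same module pairs was not computed. Lipoxygenases and condensing enzymes were nearer to all network genes. The 5 members annotated as 13-lipoxygenases were in 5 modules. Of their 10 pairs, 1 was an edge (10%), against 13.6% of all network pairs and an average of 6.69% over the same module pairs. This edge (0.079) joined *LOX3* with *LOX5*, the gene whose Arabidopsis counterpart acts at carbon 9. Both allene oxide synthase genes of the network, *AOS* and Sevir.9G488000 (red), stood low in summed weight, at the 7.47th and 8.38th percentiles, and shared no edge. A further 10 members carried domain signatures of 3-ketoacyl-CoA synthases, the condensing enzymes of very-long-chain fatty acid elongation, which have no step in the jasmonate pathway. They were in 7 modules with 6 of 45 pairs as edges (13.3%), against 13.6% of all network pairs and an average of 11.3% over the same module pairs. Their median summed weight was at percentile 6.02 of the network.

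**Figure D2:**
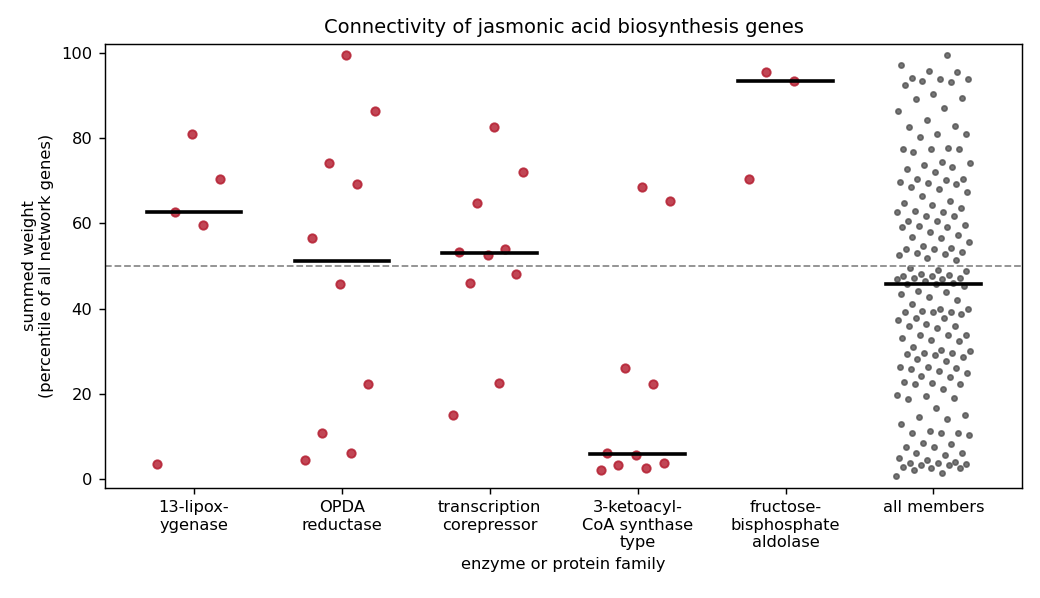
Summed edge weight of each gene with the jasmonic acid biosynthesis term, as a percentile of all network genes (y axis, percent), for 5 protein families and for all 172 members (x axis). Points are genes, black bars are medians, and the dashed line marks the network median. OPDA reductases span 4.4 to 99.4, and 3-ketoacyl-CoA synthase types have a median of 6.02.

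Over all 172 genes, the number of edges ranged from 64 to 9110 with a median of 2903, against 3069 for all network genes, and the median summed weight was at the 45.7th percentile. Within their own modules, 81 of 172 were above the module median (47.1%), 15 were above the 90th percentile, and 14 were below the 10th. Among the pathway enzymes, *LOX2* ranked 31 of 1689 genes in red and *KAT2* ranked 231 of 2411 in brown. *OPCL1* ranked 1255 of 1313 in pink and *OPR3* ranked 2583 of 2668 in blue. The enzymes therefore included some of the best and some of the least connected genes of their modules. The heaviest partners of these enzymes in the whole network were genes without a jasmonate hit, such as Sevir.4G118700 for *LOX2* (0.173), Sevir.9G408300 for *AIM1* (0.215), and Sevir.2G396200 for *OPR2* (0.272). The heaviest partner of *ACX1* was Sevir.9G469700 (0.135), the best hit of the *TOPLESS-related* corepressor gene *TPR1*. *JOX2* and *ILL6* had the same heaviest partner, Sevir.1G073600 (0.134 and 0.117).

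The 172 genes were found in 21 modules. Red held 21 (12.2% of them, against 6.68% of network genes), magenta 20 (11.6% against 4.98%), black 17 (9.88% against 5.57%), and green 17 (9.88% against 7.44%). Together these modules held 43.6% of the jasmonic acid biosynthesis genes and 24.7% of network genes. The large modules turquoise, blue, and brown held 22.1% of them and 35.5% of network genes. No gene with the term was in darkgrey, darkorange, grey60, orange, or royalblue.

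**Figure D3:**
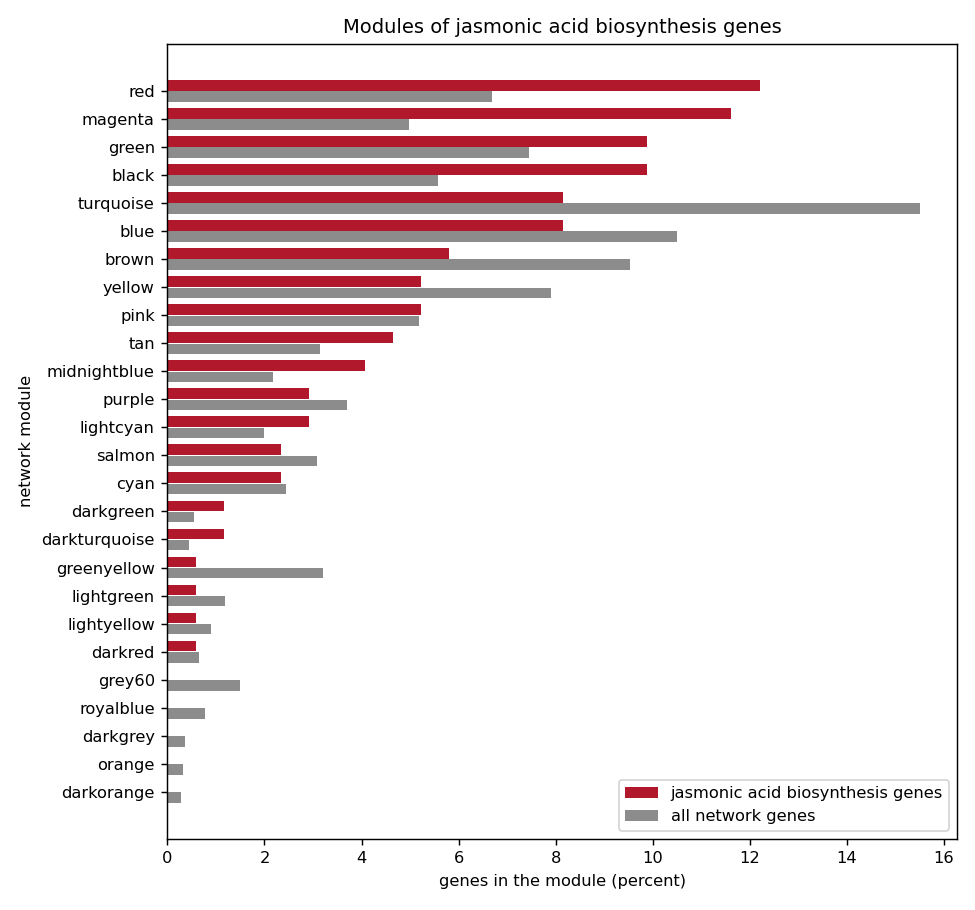
Share of the 172 jasmonic acid biosynthesis genes (upper bars) and of all 25298 network genes (lower bars) in each network module, in percent (x axis). Red and magenta hold 12.2% and 11.6% of the jasmonic acid biosynthesis genes, and turquoise holds 8.14% of them beside 15.5% of all genes.

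As a whole, the list was linked about as densely as other gene pairs. Of 14706 pairs, 2145 were edges (14.6%), against 13.6% of all network pairs. Over all network genes of the same module pairs as the members, the average was 12.6%. For pairs of 1 module the share was 62.0% of member pairs, against 62.3% of all pairs, and for pairs of different modules it was 10.9% of member pairs, against 9.66% of all pairs. Other hormone lists gave similar values, with 14.0% for 159 brassinosteroid biosynthesis genes, 13.7% for 111 gibberellin signalling genes, and 12.8% for 263 auxin signalling genes. The 68 genes with a reciprocal best hit reached 18.8% and the 104 others 13.6%.

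**Figure D4:**
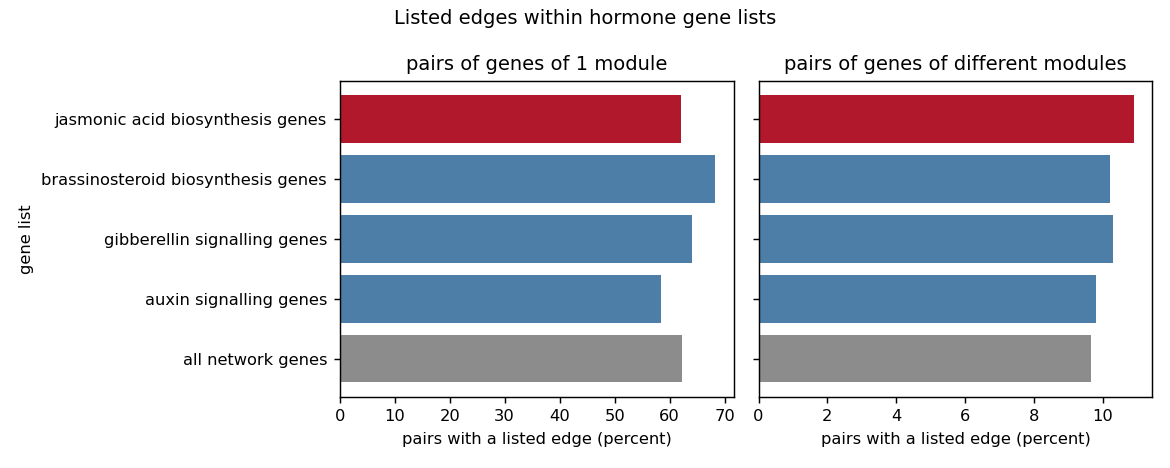
Share of gene pairs with a listed edge, in percent (x axes), for the jasmonic acid biosynthesis genes, for 3 other hormone gene lists, and for all network genes. The left panel holds pairs of genes of 1 module and the right panel pairs of different modules, and the x axes differ in scale. Jasmonic acid biosynthesis genes stand at 62.0% and 10.9%, beside 62.3% and 9.66% for all network genes.

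The term was also assigned to genes annotated with other pathways. Of the 172 genes, 110 were also annotated with response to wounding (64.0%, against 2.13% of network genes) and 46 with oxylipin biosynthesis (26.7% against 0.261%). Glycine catabolism was carried by 53 (30.8% against 0.269%) and lipoate metabolism by 52 (30.2% against 0.233%), processes that make no jasmonate. Among the 53 genes with glycine catabolism, 21.9% of pairs were edges, against 13.9% among the 119 without it, and 13 of the 53 were in red.

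The 5 members with the largest summed weight to other members were *OPR2* (3.94) and best hits of lipid, lipoate, and sugar metabolism genes. Sevir.2G218400 (pink) is the best hit of *MGD1*, the main galactolipid synthase of plastid membranes, and it had 64 edges to other members with a summed weight of 4.72. Sevir.9G377200 (pink) is the best hit of *FAB1*, a condensing enzyme of plastid fatty acid synthesis, and had 59 edges. Sevir.7G129500 (blue), the best hit of the lipoate synthase gene *LIP1*, had 68 edges, the most of any member, and the plastid aldolase Sevir.5G078200 (pink) had 60. *MGD1* and *FAB1* shared an edge of 0.184. They were the heaviest partners with the term for 6 of the 10 corepressors, 4 with *MGD1* and 2 with *FAB1*. This is not particular to corepressors, since most green members had *MGD1* or *FAB1* as heaviest partner with the term. Both genes had many edges (7074 and 7162), with summed weights at the 93.8th and 95.6th percentiles of the network. The heaviest edge among all members joined *OPR2* and Sevir.5G127300 (0.209), and *OPR2* was also in the edges with Sevir.3G292700 (0.194) and with the phospholipase A1 gene Sevir.5G421400 (0.189).

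Neighbouring members were mostly in different modules, as were most pairs of all members and of all network genes. Of all 14706 member pairs, 1054 were of 1 module, and of all 319981753 network pairs, 24000072 were. Both are smaller shares than among the few neighbour pairs. Within 10 loci of each other, 35 of the genes formed 14 runs with 28 pairs, and 4 pairs were of 1 module and 7 were edges (25%), against 14.6% of all member pairs, 13.6% of all network pairs, and an average of 18.7% over all network genes of the same module pairs. *AIM1* and the adjacent Sevir.1G121100, annotated with the same dehydrogenase activity, were both in black without an edge, and they had 5302 and 606 edges. The neighbours *OPR2* and Sevir.7G118000 shared an edge of 0.0719 although the neighbour is in yellow.

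*SvFul2* (Sevir.2G006400, brown) had edges with 9 of the 172 genes (5.23%), against 7.75% of all network genes. The 95% Wilson interval of 2.78% to 9.64% treats co-expressed genes as independent and measures no replicate error. The order of the shares of 5.23% and 7.75% turned round with reciprocal best hits only, where 10.3% of 68 members had an edge with *SvFul2*. The heaviest was with *AIM1* (0.0527), above 78.0% of the edges of *SvFul2*, and *ACX1* (0.0317), *KAT2* (0.0268), *LOX3* (0.0242), and *JAZ10* (0.024) were among the others. These 5 genes lie on the beta-oxidation side of the map. Over the 32 mapped genes, *SvFul2* had edges with 9 of the 14 genes of that side, with *MED25* (0.0735) and *COI1* (0.0603) the heaviest. It had edges with 0 of the 13 genes of the OPDA and repressor side. The sides were drawn from weights of the same network, so these counts describe the map. Over all network genes, 54.5% of pairs within brown and 26.6% of pairs of brown with black were edges. With blue, magenta, pink, and green the shares were 8.67%, 0.716%, 0.224%, and 0.0541%. The part of module membership in the counts was not tested. Edges carry no direction and give no evidence of binding or regulation.

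None of the other regulators compared had edges with both the beta-oxidation side and the OPDA and repressor side, but some had few with either. *SvFul4* (Sevir.3G374401, magenta), another *AP1/FUL-like* gene, had edges with 60 of the 172 genes (34.9%, against 22.2% of network genes), with 10 of 13 genes of the OPDA and repressor side, and with 0 of 14 of the beta-oxidation side. Its heaviest edges to the OPDA and repressor side were with *CYP94B3* (0.102) and *JAZ3* (0.0943). *SvMads51* (Sevir.5G438700, magenta) had edges with 53 (30.8% against 15.9%) and the *AP2-like* gene *SvSid1* (Sevir.2G093800, magenta) with 49 (28.5% against 13.8%), and both were linked with *CYP94C1* (0.12 and 0.0995). A magenta bHLH gene (Sevir.2G248500) had edges with 63 (36.6% against 19.5%). *SvFul3* (brown), *SvMads34* (cyan), and the *KNOX* gene *SvKn1* (tan) had edges with 6.98%, 18.6%, and 8.14% of the genes, against 11.8%, 25.3%, and 11.1% of network genes. They had edges with 5, 5, and 7 of 14 genes of the beta-oxidation side and 0 of 13 of the OPDA and repressor side. *SvFul1*, *SvRa2*, and *SvFea4* had edges with 1, 2, and 3 of the 14 and 0 of the 13, and *SvIds1* with 0 of the 14 and 4 of the 13. For a regulator linked with few network genes, 0 of 13 or 0 of 14 is a weak contrast. Since the sides came from weights of the same network, the shares by side describe the map and support nothing further. The modules of the regulators and of the genes they were linked with move together with these shares, and the part of module membership in them was not tested.

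**Figure D5:**
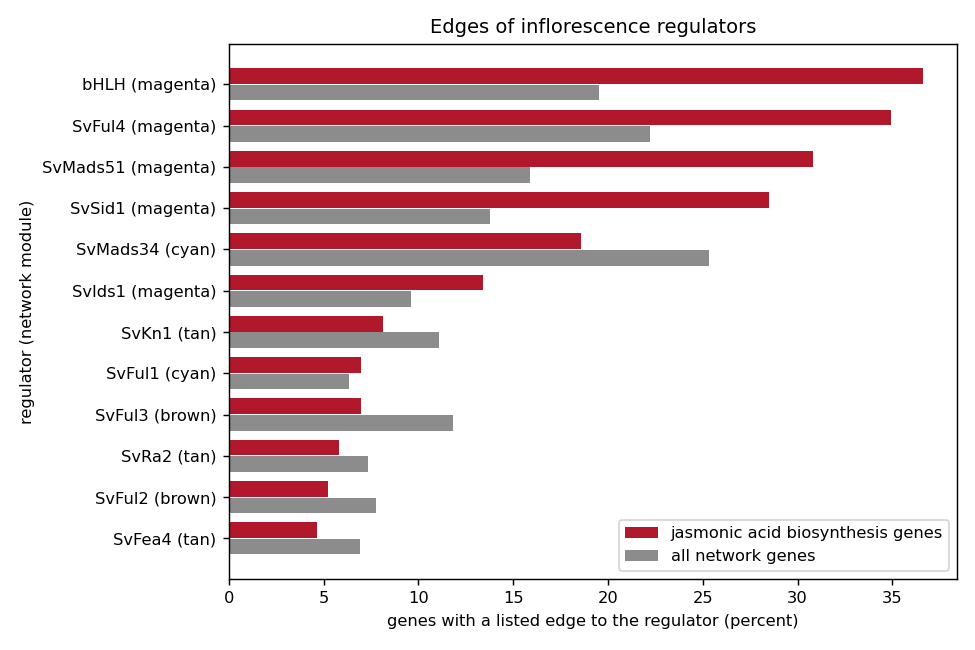
Share of the 172 jasmonic acid biosynthesis genes (upper bars) and of all network genes (lower bars) with a listed edge to each of 12 inflorescence regulators, in percent (x axis), with the module of the regulator in brackets. The magenta genes bHLH, *SvFul4*, *SvMads51*, and *SvSid1* link with 28.5% to 36.6% of the jasmonic acid biosynthesis genes, and *SvFul2* with 5.23%.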

How the data were processed

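Poly-A RNA-seq libraries were made from pooled inflorescence primordia (24 samples). The authors trimmed reads, quantified primary transcripts of the version 2.1 annotation with Salmon 0.13.0, stabilized the variance of the estimates, and used WGCNA with biweight midcorrelation to obtain a signed network. The deposited weight of a gene pair is a score, the topological overlap, and only pairs of about 0.02 or more are listed, so that weak links are unknown. The module labels and the GO terms, of the unit other, were deposited by the authors, who made the annotation with GOMAP. The network and annotation tables used here have no columns for single samples. Expression, depth, and *Svful2* against wild type were not analysed here.

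Assignments marked NOT (678) were left out, and terms were used as assigned. Edges, summed weights, percentile ranks, and shares of listed pairs were computed with Python 3.11.15, numpy 2.4.6, and pandas 2.3.3, tested on simulated data. The average over the same module pairs is the mean, over the pairs of a list, of the share of listed pairs among all network genes of both modules. Named genes were the pathway members, the 5 members of largest summed weight to members, the 5 heaviest member pairs, runs within 10 loci, heaviest partners, and genes of the signalling, conjugation, and breakdown lists. *CTS*, *ACX2* to *ACX4*, *FAD8*, *LOX5*, *HPL1*, and the regulators were named beside this rule, as were the sides of the edge map, the compartments, and the corepressor, cytochrome P450, 3-hydroxyacyl-CoA dehydrogenase, and 3-ketoacyl-CoA synthase families, which were chosen after their values were seen. The members and lists were chosen with earlier results of these data known. Alternatives changed the members or the edges counted. Figures were drawn with matplotlib 3.10.9.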

Additional observations from a re-analysis of the deposited data

How the results depend on the processing

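Each of the 7 results was recomputed under its alternatives, 27 in all, of which 13 stayed within the 95% Wilson interval of the share or within 1.5 times the count, and 14 moved further. These intervals treat genes or pairs as independent, although genes are co-expressed and pairs share genes, so they serve only as a fixed yardstick. With reciprocal best hits only, 68 genes were left, the most frequent module held 9 of them, 18.8% of pairs were edges, 57.4% of genes were above the module median, and 10.3% had an edge to *SvFul2*, which is above the 7.75% of all network genes where the full list was below it. Where an edge had to reach 2 times the minimum weight, the shares were 6.6% of member pairs, 19.2% of pathway-gene pairs, 9.5% of pairs with *COI1*, *MED25*, and *NINJA* (17.6% with all edges), and 0.581% of genes for *SvFul2*, against 7.05% of all pairs and 2.91% of all genes for *SvFul2*. With the top 10% of weights the first 3 shares were 0.626%, 2.5%, and 2.33%, against 1.36% of all pairs. Fewer edges are counted in both settings by construction. At these stricter weights member pairs were below all pairs, whereas they were above them with every edge. Pairs of different modules gave 10.9%, and pathway members alone gave 33.3% for the pairs with signalling genes. No paired analysis was possible because the network and annotation tables used here hold no column for a single sample. Precision is limited by the unlisted weights and by the absence of replicates.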
